A study of Mus musculus with 21 samples.

Results

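The immunoglobulin heavy chain variable segments (*Ighv* genes) were followed in mRNA-seq libraries of podocyte fractions from young and middle-aged mice. The segments were chosen by symbol and total count: a gene was taken if its mouse symbol began with Ighv and if it had 10 or more read counts summed over the 21 libraries. This gave 102 of the 120 *Ighv* genes in the count tables, which list 27179 genes in all. Of the other 18, 12 had between 1 and 7 counts and 6 were at 0. The members nearest above the limit were *Ighv1-79* with 13 counts, *Ighv8-6* with 21 and *Ighv8-11* with 23, and the genes nearest below it were *Ighv1-86* with 7 counts and *Ighv7-2* and *Ighv6-5* with 6 each. Since the totals chose the members, that they were detected is not a finding.

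All mice were male and wildtype. Young mice (6 libraries) were 4 months old and untreated. The study states that podocytes were isolated from individual mice of each group. The labels give 6 young libraries, more than the number of young mice in the study's description. Middle-aged mice were 19.5 months old and had received either saline (7 libraries) or 10 mg/kg of MCC950, a small molecule inhibitor of the NLRP3 inflammasome (8 libraries), for 6 weeks from 18 months of age. The podocyte fraction of each kidney cortex was pulled out of a cell suspension with antibodies to nephrin and magnetic beads. Both middle-aged groups had been treated and the young group had not, so age and the treatment itself cannot be told apart in comparisons with young mice.

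The libraries held between 27375870 and 84876399 counts, and the deepest young library (36827823) held fewer than the shallowest saline library (45772937). Mitochondrial genes took a median of 71.1% of counts in young, 68.6% in saline and 57.5% in MCC950 libraries. The podocyte gene *Nphs1* (nephrin) was detected in every library, with a median level of 41.4 CPM (counts scaled to the library size) in young, 6.48 in saline and 11.7 in MCC950 libraries. Markers of proximal tubule and of macrophages were also present in every library, so the fractions held cells other than podocytes. In bulk RNA, fewer cells of a type and less RNA per cell cannot be told apart.

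A heavy chain gene is assembled in a developing B cell, which joins a single variable segment to a diversity and a joining segment by V(D)J recombination. The assembled variable region is transcribed together with a constant gene such as *Ighm* or *Igha*, which sets the antibody class. The segment encodes the first and second antigen-binding loops of the heavy chain, the junction forms a further loop, and all cells of a B cell clone share them. Plasma cells, the antibody-secreting end stage of the B lineage, transcribe these genes at a very high rate. A read count on a segment does not identify the clone, since the junction is not read out in these tables.

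On GRCm38 (mm10) the 102 members lie on the minus strand of chromosome 12 between 113578504 and 116000321, the exonic length of their GENCODE transcripts ranged from 303 to 480 bases (median 353), and RefSeq lists each of them as a V segment. The genes closely resemble each other: the variable exon of a member was identical to that of its nearest relative at a median of 95.4% of bases, and the lowest identity was 75.1%. The sequences of 6 segments on which the results below turn are printed 5′ to 3′ as the last 300 bases of the variable exon in GENCODE, with the bases that differ from the nearest relative in capitals. *Ighv1-53* led more libraries than any other segment and is set against *Ighv1-72*. *Ighv1-18* and *Ighv1-26* are each other's nearest relative and differ at 8 of these positions. *Ighv3-6* (nearest to *Ighv3-1*) and *Ighv1-39* (nearest to *Ighv1-42*) each led a single middle-aged library, and *Ighv14-4* (nearest to *Ighv14-1*) was higher in each middle-aged than in any young library.
*Ighv1-53*, chr12:115158403-115158702: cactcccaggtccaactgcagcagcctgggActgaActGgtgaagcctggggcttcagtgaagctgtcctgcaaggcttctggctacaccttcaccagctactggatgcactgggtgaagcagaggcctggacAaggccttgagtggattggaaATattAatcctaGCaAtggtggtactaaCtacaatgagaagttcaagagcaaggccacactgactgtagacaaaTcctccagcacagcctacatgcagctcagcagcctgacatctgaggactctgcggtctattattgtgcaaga
*Ighv1-26*, chr12:114788372-114788671: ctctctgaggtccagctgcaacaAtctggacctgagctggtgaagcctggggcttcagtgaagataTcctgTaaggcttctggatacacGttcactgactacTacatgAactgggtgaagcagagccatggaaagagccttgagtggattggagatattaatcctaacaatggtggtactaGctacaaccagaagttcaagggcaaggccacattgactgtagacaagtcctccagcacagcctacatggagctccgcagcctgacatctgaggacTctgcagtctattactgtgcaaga
*Ighv1-18*, chr12:114682632-114682931: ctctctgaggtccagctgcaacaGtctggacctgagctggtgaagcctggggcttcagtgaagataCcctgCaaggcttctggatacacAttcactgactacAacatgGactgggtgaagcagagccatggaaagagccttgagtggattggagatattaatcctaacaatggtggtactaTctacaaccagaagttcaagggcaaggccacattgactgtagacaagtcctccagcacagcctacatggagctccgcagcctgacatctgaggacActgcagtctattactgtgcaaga
*Ighv3-6*, chr12:114288152-114288451: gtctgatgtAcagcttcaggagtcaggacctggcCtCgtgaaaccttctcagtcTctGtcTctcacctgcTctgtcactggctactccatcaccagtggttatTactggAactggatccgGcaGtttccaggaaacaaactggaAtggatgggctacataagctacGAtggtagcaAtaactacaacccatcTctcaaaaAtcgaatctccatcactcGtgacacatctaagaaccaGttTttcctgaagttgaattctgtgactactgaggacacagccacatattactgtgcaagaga
*Ighv1-39*, chr12:114914599-114914898: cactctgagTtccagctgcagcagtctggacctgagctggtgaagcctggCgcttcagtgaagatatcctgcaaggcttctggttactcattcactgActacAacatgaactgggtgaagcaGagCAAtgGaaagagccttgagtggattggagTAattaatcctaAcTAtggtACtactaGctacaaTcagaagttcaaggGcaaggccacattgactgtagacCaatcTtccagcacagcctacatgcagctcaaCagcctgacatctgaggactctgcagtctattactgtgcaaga
*Ighv14-4*, chr12:114176438-114176737: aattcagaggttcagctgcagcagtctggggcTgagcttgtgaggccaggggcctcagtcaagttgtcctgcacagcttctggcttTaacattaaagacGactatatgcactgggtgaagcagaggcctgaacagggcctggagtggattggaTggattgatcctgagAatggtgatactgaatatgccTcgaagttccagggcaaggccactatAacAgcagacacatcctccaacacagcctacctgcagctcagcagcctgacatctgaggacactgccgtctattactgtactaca
The same 9 bases, tgtgcaaga, which encode the conserved cysteine at the end of the segment and the residues after it, closed the variable exon of 47 of the 102 members. Where 2 segments differ by so few bases, reads from shared stretches may be counted on either of them. At least 95% identity to the nearest relative was found for 61 members and at least 98% for 15, and *Ighv1-62-2* and *Ighv1-71*, named here for that reason and not by their levels, were identical throughout the exon.

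The summed level of the 102 segments was higher in middle-aged than in young mice in every library. A level here is the count divided by the library size after TMM scaling (TMM-scaled CPM). In young libraries the summed level was 29.8 at the lowest, 45.2 at the median and 106 at the highest. In saline libraries it was 533 at the lowest, 691 at the median and 849 at the highest, so the median was 15.3 times that of young libraries and the groups were far apart. In MCC950 libraries it was 187, 179, 476, 120.4, 323, 930.2, 923 and 132 in replicates 1 to 8. The median of 255 was 0.368 times the saline median and 5.64 times the young median. Replicates 6 and 7 exceeded all saline libraries, the other 6 were lower than all of them, and all 8 exceeded the highest young library. The highest MCC950 library was 7.73 times the lowest, against 1.59 times within the saline group and 3.57 times within the young group. These sums are a description and were not tested, and with means in place of medians the MCC950 to saline ratio was 0.587.

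**Figure D1:**
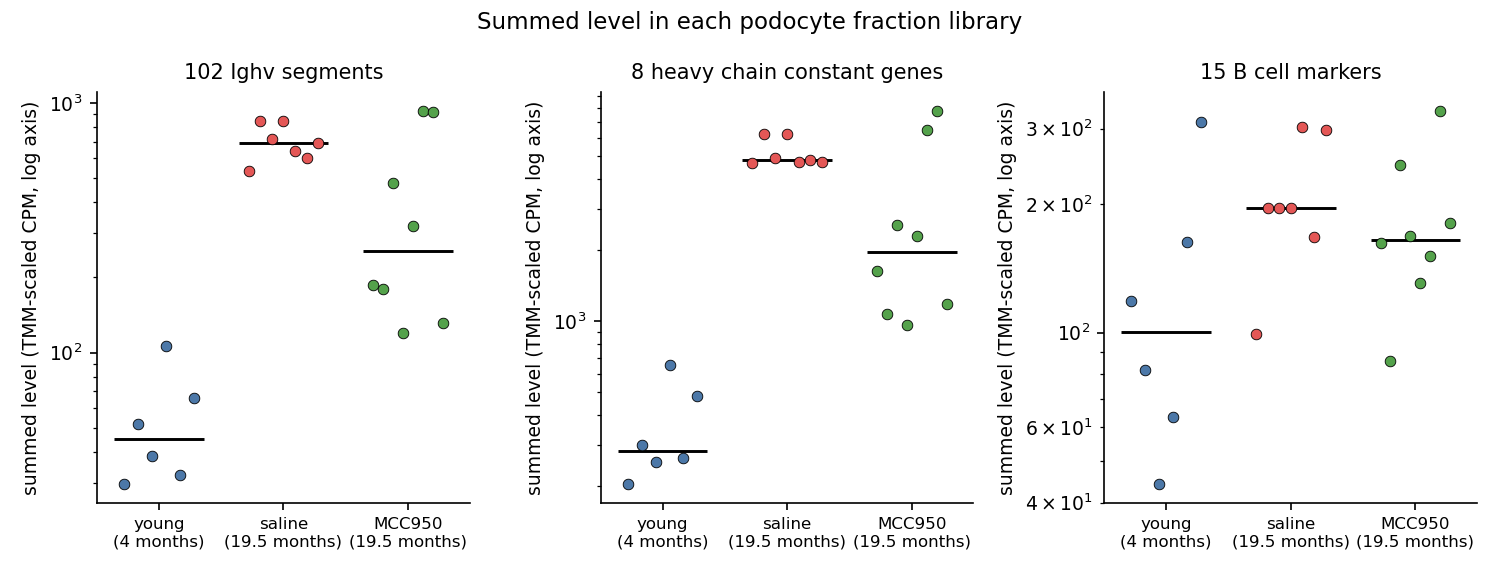
Summed level in TMM-scaled CPM (log axis) of the 102 *Ighv* segments, of 8 heavy chain constant genes and of 15 B cell markers, with 1 point per library and a line at the group median. The 7 saline libraries sit between 533 and 849 for the segments, 6 MCC950 libraries sit below them and 2 above, while the B cell markers overlap between all groups.

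The constant genes of the heavy chain followed the same order. Their summed level ranged from 205 to 655 CPM in young (median 282), from 4698 to 6240.5 in saline (median 4831) and from 964 to 7797 in MCC950 libraries (median 1966). MCC950 replicates 6 and 7 were again the only MCC950 libraries above the highest saline library. The ratio of summed segment counts to summed constant gene counts was 0.122 to 0.173 in young, 0.114 to 0.146 in saline and 0.111 to 0.186 in MCC950 libraries, and these ranges overlapped. *Ighm*, the IgM constant gene, took a median of 61.4% of heavy chain constant counts in young, 74.0% in saline and 65.8% in MCC950 libraries. *Igha*, the IgA constant gene, took 31.9%, 22.4% and 27.7%. MCC950 replicate 3 stood apart here, with 85.1% *Igha* and 13.2% *Ighm*.

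Segment levels were broadly higher in saline than in young libraries, a comparison called "with age" here although the treatment differed too. Of the 83 members that passed the filter on low counts, 61 were called higher in saline than in young libraries (edgeR quasi-likelihood test, Benjamini-Hochberg adjusted p under 0.05 over 16377 genes) and 0 lower (0 also at an unadjusted p under 0.05, where 76 were higher). Over all genes tested, 12.2% were called higher and 12.4% lower. The log2 fold change was positive for all 83 tested members, with a median of 3.25 and a range from 1.06 to 7.88, while the median over all genes tested was 0.02. For 38 members every saline library lay above every young library, which was so for 4.51% of all genes, and 0 members lay wholly below, against 4.86% of all genes. A member could pass the filter through the middle-aged groups alone, so these counts describe the tested members and not all 102. The 19 members not tested had at most 452 counts each and together 77 counts in young, 1338 in saline and 841 in MCC950 libraries. DESeq2, which gave a value for all 102 members, called 71 higher and 0 lower. The share of all genes that DESeq2 called was not computed, so these counts have no background to be set against.

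**Figure D2:**
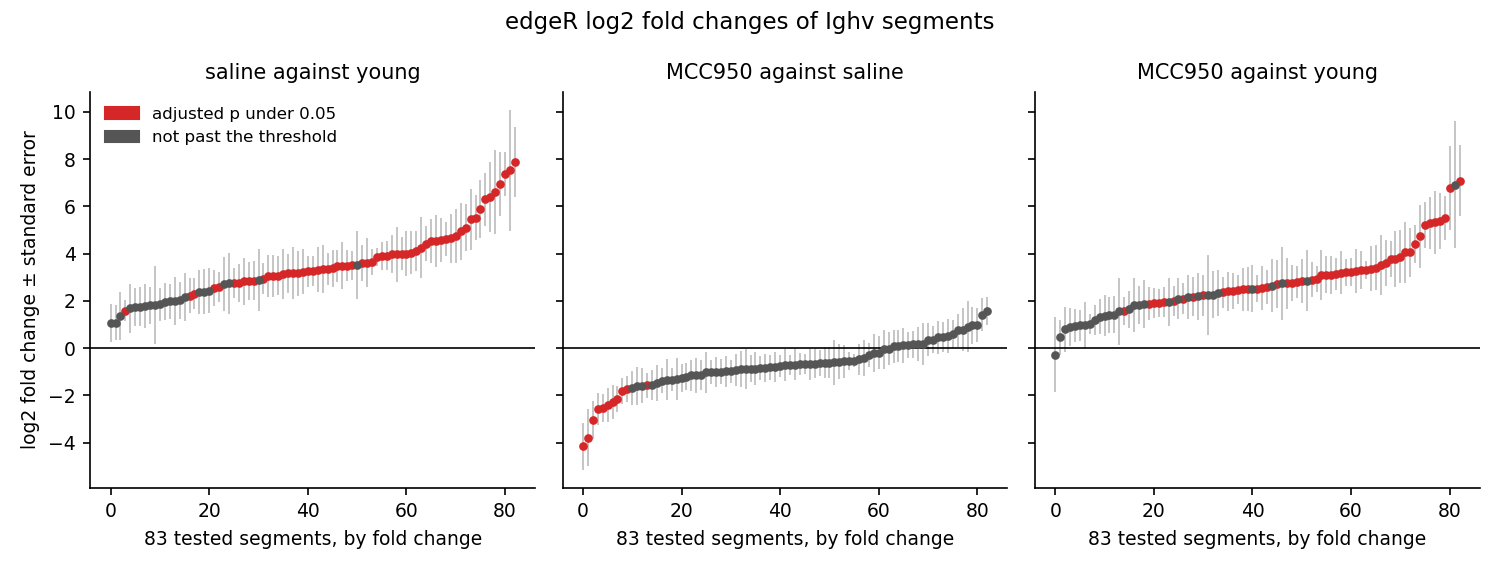
edgeR log2 fold change of each of the 83 tested segments with its standard error, ordered by fold change in each comparison, with red points past an adjusted p of 0.05. All 83 points are above 0 for saline against young, 61 of them red, whereas 63 points are below 0 for MCC950 against saline and 11 of them are red.

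*Ighv1-53*, the segment with the most counts (109214 over all libraries), measured 2.54, 2.32, 3.10, 1.46, 2.13 and 3.26 CPM in young replicates 1 to 6. In saline libraries it ranged from 63.1 to 201 with a median of 103. The groups did not overlap, and the log2 fold change was 5.52 (standard error 0.95, edgeR adjusted p = 0.000311). *Ighv1-26*, the segment with the highest mean in young mice, was at 1.49 to 7.58 CPM in young and at 27.6 to 88.3 in saline libraries, again without overlap (log2 fold change 3.91, standard error 0.61, edgeR adjusted p = 0.000138).

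*Ighv14-4* showed one of the widest separations for its low level in young mice. It was at 0.0498, 0.166, 0.0646, 0, 0.112 and 0.0836 CPM in the young libraries and at 9.22, 18.7, 15.02, 23.6, 5.48, 2.95 and 16.6 CPM in the saline libraries. The log2 fold change was 7.37 (standard error 0.95, edgeR adjusted p = 2.66e-05). *Ighv1-58* had the highest fitted log2 fold change, 7.88 (standard error 1.47, edgeR adjusted p = 0.000641), with a single count in young replicate 6 against 0.613 to 6.89 CPM in saline libraries. Fold changes this high rest on very few young counts. *Ighv1-43* had no count in any young library, and against a floor of 3 counts over the young group its saline mean of 0.443 CPM was at least 25.2-fold higher. Its call (edgeR adjusted p = 0.0412) was lost without any one of the 6 young libraries or saline replicate 2, with an adjusted p of up to 0.0740 over its alternatives.

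Other members with high fold changes were *Ighv1-39* (6.94 on the log2 scale), *Ighv5-9-1* (6.60), *Ighv11-2* (6.39), *Ighv1-54* (6.29) and *Ighv5-12* (5.90), each called and each with young levels of at most 0.543 CPM. *Ighv11-2* and *Ighv5-12* overlapped between the groups nonetheless: *Ighv11-2* was at 0 CPM in saline replicate 6 and 0.0568 in saline replicate 7, against 23.3 in saline replicate 1. *Ighv11-2* belongs to a family known for its use by B-1 cells, the innate-like B cells of body cavities. Of the 6 segments that led a young library, *Ighv1-53* is given above and *Ighv1-80* had a log2 fold change of 3.50 (edgeR adjusted p = 0.000627). A segment taken for a high young library has a lower fold against young libraries by that choice. For *Ighv1-75* the log2 fold change was 1.58 ± 0.44 (standard error; edgeR adjusted p = 0.0130), for *Ighv8-8* 1.81 ± 0.77 (edgeR adjusted p = 0.0898) and for *Ighv5-4* 1.08 ± 0.75 (edgeR adjusted p = 0.317). Without the young library that it led, *Ighv8-8* (young replicate 2) was called at 3.27 (edgeR adjusted p = 0.00619) and *Ighv5-4* (young replicate 6) at 2.68 (edgeR adjusted p = 0.00916), and *Ighv8-8* was also called without MCC950 replicate 6 (edgeR adjusted p = 0.0444). *Ighv14-3* was called at 2.22 (edgeR adjusted p = 0.0283), a call lost without young replicate 2, 3 or 4 or saline replicate 2 or 6, with an adjusted p of up to 0.101 over its alternatives. With the replicate number as a block in the fit, *Ighv1-75* (edgeR adjusted p = 0.0645) and *Ighv14-3* were not called. *Ighv8-8* (edgeR adjusted p = 0.0105) and *Ighv5-4* (edgeR adjusted p = 0.0444) were called in that fit.

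**Figure D3:**
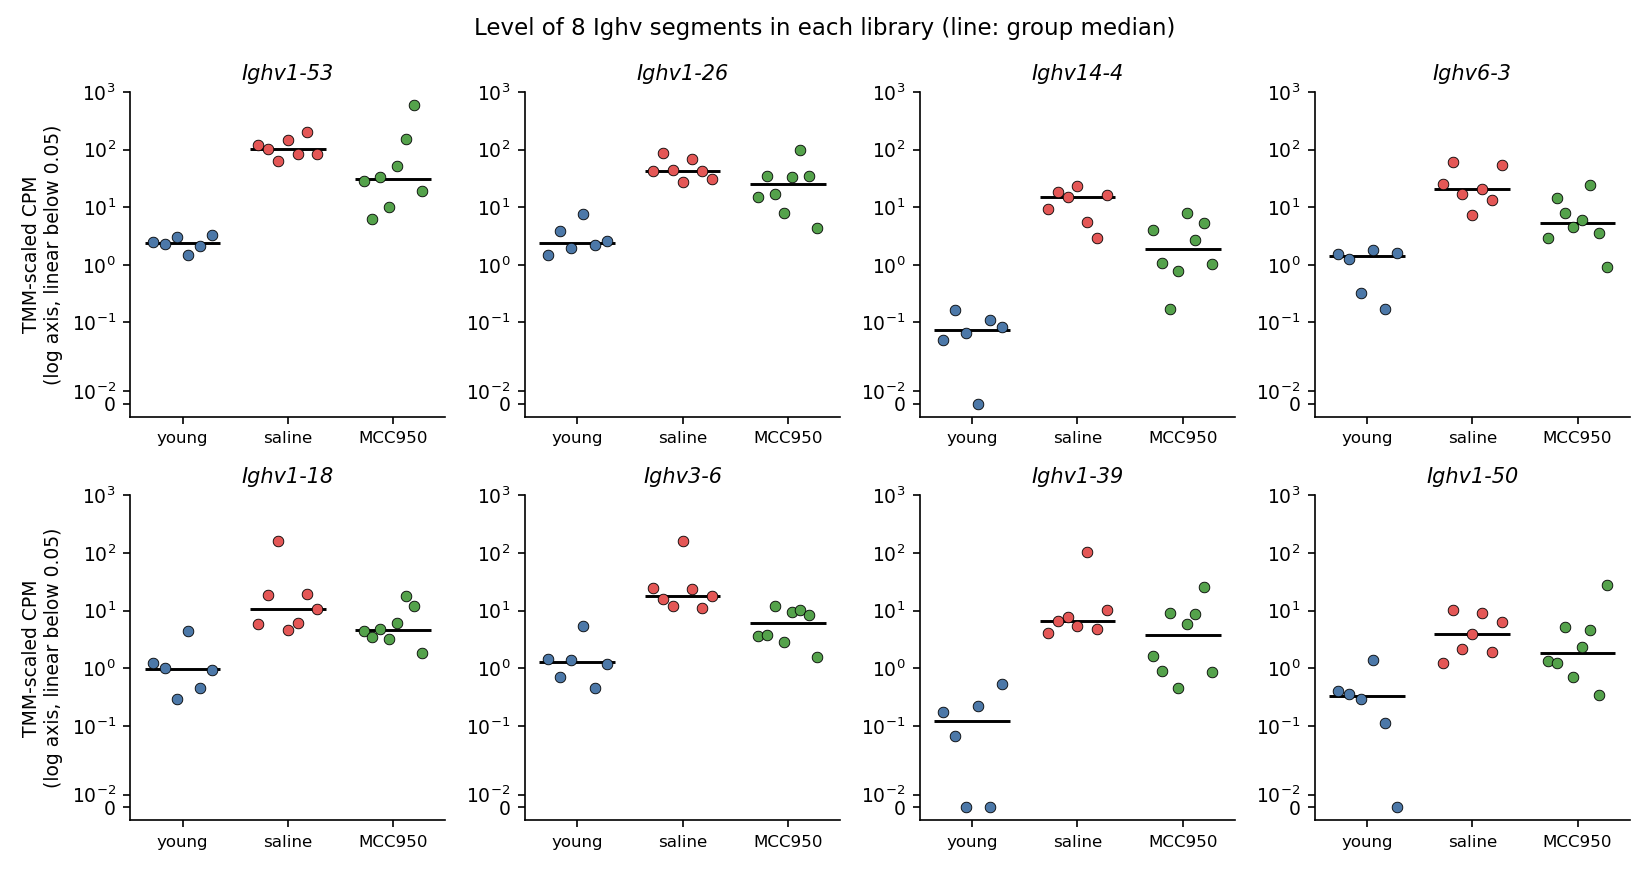
Level of 8 segments in each library in TMM-scaled CPM (log axis, linear below 0.05), with a line at the group median. *Ighv1-53*, *Ighv1-26* and *Ighv14-4* separate saline from young libraries, and *Ighv1-18*, *Ighv3-6* and *Ighv1-39* each have 1 saline library, and *Ighv1-50* 1 MCC950 library, far above the others of its group.

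MCC950 was compared with saline to ask whether NLRP3 inhibition altered segment levels at the same age. Of the 83 tested members 0 were called higher and 11 lower, while 1 was higher and 18 were lower at an unadjusted p under 0.05. Over all genes tested 11.9% were called higher and 4.86% lower. The log2 fold change was negative for 63 members and positive for 20, with a median of -0.73 and a range from -4.15 to 1.56, while the median over all genes tested was 0.00. For 0 members did the groups separate, in either direction, against 1.15% of all genes wholly higher and 0.586% wholly lower. The number called lower depended on single libraries: it was 19 without MCC950 replicate 6, 5 without MCC950 replicate 1, 6 without MCC950 replicate 4 or 5, and 7 without MCC950 replicate 8 or saline replicate 4. Without MCC950 replicate 4, saline replicate 5 or young replicate 4, 1 member was called higher.

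The members called lower differed in how their values were spread. *Ighv14-4* was at 4.09, 1.09, 0.170, 0.781, 7.92, 2.75, 5.35 and 1.03 CPM in MCC950 replicates 1 to 8, of which 5 lay below the lowest saline value of 2.95 (log2 fold change -2.15, standard error 0.53, edgeR adjusted p = 0.0118). *Ighv1-12* ranged from 1.56 to 14.7 CPM in saline and from 0.0578 to 2.89 in MCC950 libraries (log2 fold change -2.58, standard error 0.69, edgeR adjusted p = 0.0158). It was at 14.7 and 8.50 in saline replicates 2 and 1 and at no more than 3.86 in the other saline libraries. *Ighv6-3* ranged from 7.33 to 61.4 CPM in saline and from 0.920 to 24.5 in MCC950 libraries (log2 fold change -1.82, standard error 0.54, edgeR adjusted p = 0.0265). It was at 61.4 and 54.3 in saline replicates 2 and 7 and at no more than 25.8 in the other saline libraries. *Ighv1-80* was lower by a log2 fold change of -1.58 (standard error 0.52, edgeR adjusted p = 0.0419), with saline libraries from 8.64 to 72.3 CPM and MCC950 libraries from 3.60 to 19.0.

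*Ighv6-6*, named here after its values were seen, was also called (log2 fold change -1.74, edgeR adjusted p = 0.0338) but not in 8 of the fits without 1 library, with an adjusted p of up to 0.0873.

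As with *Ighv1-12* and *Ighv6-3*, 1 or 2 saline libraries stood far above the rest for the members called lower that follow. This was not so for *Ighv14-4*, *Ighv1-80* and *Ighv6-6*, whose highest saline library held 25.8%, 32.2% and 28.3% of their saline sums. *Ighv1-18* reached 164 CPM in saline replicate 3, 71.2% of the sum over saline libraries, and lay between 4.58 and 19.9 in the other 6 (log2 fold change -2.28, edgeR adjusted p = 0.0330). *Ighv3-6* reached 163 CPM in saline replicate 4 and *Ighv1-54* 66.1 CPM in the same library, or 60.5% and 76.8% of their saline sums. Their log2 fold changes were -2.55 (edgeR adjusted p = 0.00913) and -2.42 (edgeR adjusted p = 0.0259). *Ighv5-12* was at 22.9 CPM in saline replicate 5 and 11.2 in saline replicate 3 and at no more than 1.84 in the other 5 (log2 fold change -3.05, edgeR adjusted p = 0.0150). *Ighv11-2* was at 23.3 CPM in saline replicate 1 and 9.73 in saline replicate 4, and at most 0.727 in MCC950 libraries (log2 fold change -4.15, edgeR adjusted p = 0.0104). *Ighv3-4* was at 5.07 and 4.12 CPM in saline replicates 5 and 4 and at 0 in 3 of the 7 saline libraries (log2 fold change -3.80, edgeR adjusted p = 0.0354).

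The calls of *Ighv1-12*, *Ighv3-6*, *Ighv11-2* and *Ighv14-4* were kept in each of the 21 fits that left out a library, and 7 of the 11 calls were not. In libraries thinned to equal depth *Ighv11-2* did not pass the filter and was not tested. *Ighv1-54* and *Ighv3-4* were not called with DESeq2. *Ighv3-4* was also not called in thinned libraries, with only the 2 compared groups in the fit, or with a filter of 10 counts in 10 libraries. *Ighv1-18* was no longer called when saline replicate 3 (adjusted p = 0.379) was left out, or any one of MCC950 replicates 1, 2, 3, 4, 5 and 8, *Ighv1-54* without saline replicate 4 (adjusted p = 0.466) or MCC950 replicate 1, and *Ighv5-12* without saline replicate 5 (adjusted p = 0.0650). *Ighv6-3* lost it without saline replicate 2 (adjusted p = 0.0666) or 7 or MCC950 replicate 1, 4 or 5, and *Ighv1-80* in 10 such fits, with the highest adjusted p, 0.117, without saline replicate 2. *Ighv3-4* lost it in 9, in 5 of which it no longer passed the filter, with an adjusted p of 0.0651 without MCC950 replicate 1.

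The 2 segments with the most counts, *Ighv1-53* and *Ighv1-26*, did not pass the test with all libraries. *Ighv1-53* had a median of 103 CPM in saline and 30.7 in MCC950 libraries, but MCC950 replicate 7 alone reached 598, and the mean was 114 ± 47.0 (SD, n = 7) in saline and 112 ± 202 (SD, n = 8) in MCC950 libraries. Its log2 fold change of -0.02 (standard error 0.68, edgeR adjusted p = 0.990) turned positive in 16 of 32 alternatives. These were RLE normalization, DESeq2 and fits without 1 library. Without MCC950 replicate 7 it was -1.40 (standard error 0.49) and the segment was called lower (edgeR adjusted p = 0.0474). *Ighv1-26* was at 27.6 to 88.3 CPM in saline and 4.32 to 97.9 in MCC950 libraries (log2 fold change -0.68, standard error 0.48, edgeR adjusted p = 0.344), and without MCC950 replicate 6 it too was called lower (-1.23, edgeR adjusted p = 0.0421). *Ighv1-55* and *Ighv1-72* were likewise called lower without MCC950 replicate 6 (edgeR adjusted p = 0.00941 and 0.00964), and *Ighv1-39* without MCC950 replicate 7 (edgeR adjusted p = 0.0376). *Ighv1-85* had the opposite sign, with a median of 3.31 CPM in saline and 4.77 in MCC950 libraries (log2 fold change 0.76, standard error 0.71, edgeR adjusted p = 0.491).

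Compared with young mice, MCC950-treated mice kept higher segment levels. Of the 83 tested members 53 were called higher and 0 lower (65 and 0 at an unadjusted p under 0.05), against 21.8% and 16.5% of all genes tested. The median log2 fold change was 2.52, and 82 of 83 were positive. For 6 members every MCC950 library lay above every young library, against 3.28% of all genes, and for 0 every library lay below, against 4.66%. The 3 groups share libraries between these comparisons, so the calls are not independent: 47 members were called higher in both comparisons with young mice, and of the 11 called lower with MCC950, 10 were called higher with age and 6 were also called higher in MCC950 than in young libraries. *Ighv14-4* was among the last 6 (log2 fold change 5.21, standard error 0.97, edgeR adjusted p = 0.000335), with its lowest MCC950 library at 0.170 CPM just above the highest young library at 0.166. *Ighv1-58* (log2 fold change 7.09), *Ighv1-53* (5.50) and *Ighv1-54* (3.88) did not overlap between these groups either. For *Ighv1-12* it was 2.52 ± 1.00 (standard error; edgeR adjusted p = 0.0517, and called in 5 of the 21 fits without 1 library, those without saline replicate 2 or MCC950 replicate 2, 4, 7 or 8) and for *Ighv11-2* 2.24 ± 1.69 (edgeR adjusted p = 0.306). *Ighv1-12* was also called with DESeq2 (DESeq2 adjusted p = 0.0158) and in thinned libraries (edgeR adjusted p = 0.0313). *Ighv1-84* and *Ighv1-85* rose by 5.39 and 5.30 on the log2 scale (edgeR adjusted p = 0.00149 and 0.000898). *Ighv1-18* and *Ighv3-6* were called (edgeR adjusted p = 0.0456 and 0.0381) but lost the call in 11 and 9 of the 21 fits that left out a library, with adjusted p of up to 0.0998 and 0.0838 over their alternatives.

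The share that each segment took of a library's *Ighv* counts differed between mice of a group. In all, 12 segments led at least 1 of the 21 libraries, and the leading segment was the same per exonic base in 21 of 21. *Ighv1-53* led 10 of them: 1 young, 4 saline and 5 MCC950 libraries. Young libraries were led by *Ighv1-53*, *Ighv8-8*, *Ighv1-75*, *Ighv1-80*, *Ighv14-3* and *Ighv5-4* in replicates 1 to 6, each with between 7.11% and 12.3% of the counts. No segment led more than 1 young library. Young libraries held 574 to 2918 *Ighv* counts, saline libraries 27364 to 52563 and MCC950 libraries 6165 to 68482.

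In middle-aged mice single segments took larger shares in single animals. In MCC950 replicate 7, *Ighv1-53* took 64.8% of 68482 *Ighv* counts, against 3.49% to 16.3% in the other 7 MCC950 libraries. *Ighv1-18* took 22.9% in saline replicate 3, against at most 3.29% in the other saline libraries. *Ighv3-6* took 19.2% in saline replicate 4, and *Ighv1-82* (8.69%) and *Ighv1-54* (7.78%) were also highest in that library among the saline group. *Ighv1-39* took 16.3% in saline replicate 5, *Ighv1-50* 21.2% in MCC950 replicate 8 and *Ighv1-26* 19.5% in MCC950 replicate 2. *Ighv5-9-1* took 3.91% in MCC950 replicate 3, which held 81.3% of the MCC950 sum of that segment. The 2 MCC950 libraries with the highest summed level differed in this respect: replicate 6 had the highest level of 45 of 102 members within its group, replicate 7 of 14. Without *Ighv1-53*, the summed level of replicate 7 was 325 CPM, below the lowest saline library without that segment (402), and that of replicate 6 was 779, above the highest (740.0).

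**Figure D4:**
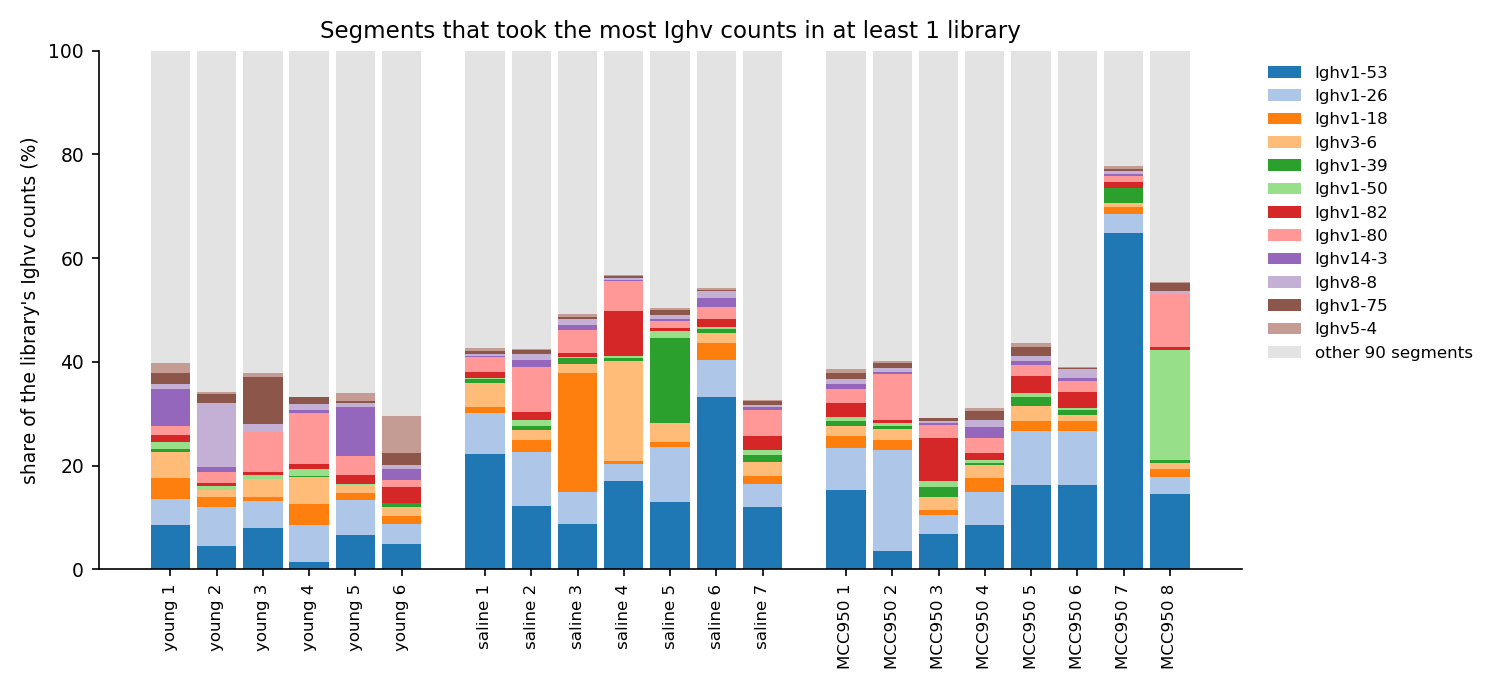
Share of each library's *Ighv* counts (stacked bars, %) taken by the 12 segments that led at least 1 library, with the other 90 in grey. *Ighv1-53* reaches 64.8% in MCC950 replicate 7, and *Ighv1-18*, *Ighv3-6*, *Ighv1-39* and *Ighv1-50* each stand out in 1 library.

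The evenness of segment use was summarised by the effective number, the exponential of the Shannon entropy of the shares, which equals the number of segments if all are used alike. It was 32.0 to 43.1 in young (median 37.6), 21.5 to 43.4 in saline (median 29.6) and 7.32 to 44.3 in MCC950 libraries (median 36.6). Of the saline libraries only replicate 7 exceeded the young median, and the groups overlapped. The leading segment took a median of 9.23% in young, 19.2% in saline and 16.3% in MCC950 libraries. With every library thinned to 574 *Ighv* counts, the lowest in any library, the median effective numbers were 36.8, 27.8 and 33.9, and the median number of segments detected was 61.1, 62.9 and 64.5. Without thinning, 58 to 77 segments were detected in young, 92 to 100 in saline and 84 to 96 in MCC950 libraries, so the difference in detected segments went with the number of counts. The overlap in segment use between pairs of libraries, as the sum of the smaller of both shares, had a median of 51.8% among young, 60.8% among saline and 54.04% among MCC950 libraries, and 51.8% between young and saline libraries. It was lowest, 29.5%, for young replicate 4 and MCC950 replicate 7.

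**Figure D5:**
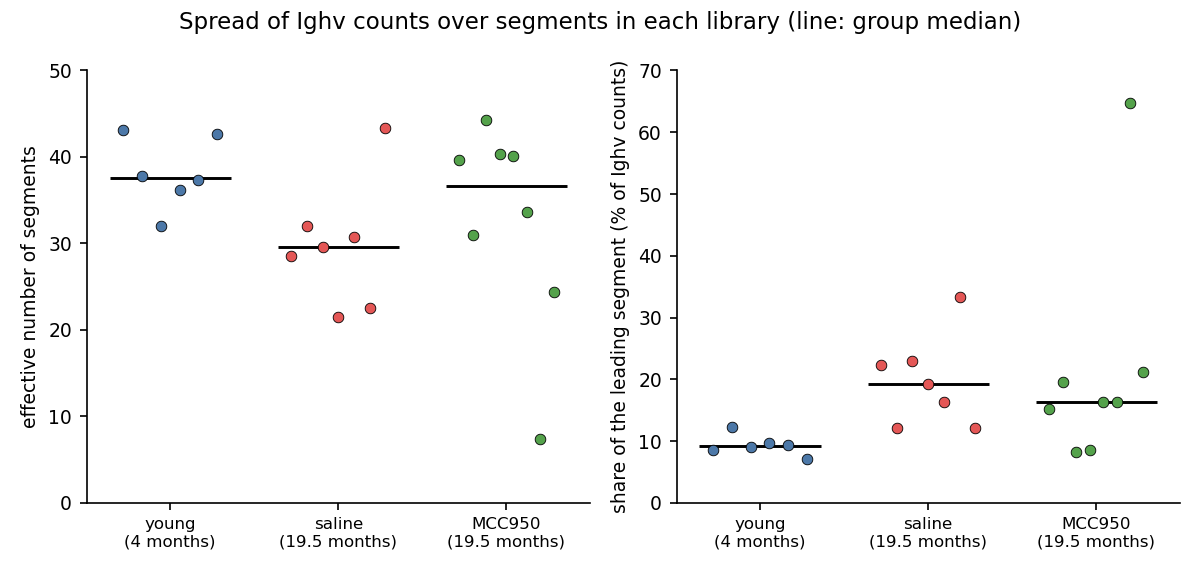
Effective number of segments and share of the leading segment in each library, with a line at the group median. MCC950 replicate 7 has an effective number of 7.32 and a leading share of 64.8%, and the young libraries stay between 32.0 and 43.1 with leading shares of at most 12.3%.

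By family, *Ighv1* (53 of the 102 members, the large J558 family) took the most counts in every group. Its share was 57.8% to 69.97% in young, 66.0% to 74.7% in saline and 55.9% to 88.1% in MCC950 libraries, the highest in replicate 7. Of its 45 tested members 37 were called higher with age and 4 lower with MCC950. Families of few members varied more. *Ighv3* took 20.1% in saline replicate 4, through *Ighv3-6*, and 1.34% to 7.36% in young libraries. *Ighv8* took 14.3% in young replicate 2, through *Ighv8-8*, and at most 5.25% in any middle-aged library. *Ighv11* took 4.56% in saline replicate 1 and at most 0.568% in MCC950 libraries. Both members of *Ighv6* were called higher with age and lower with MCC950. By position, the 34 members nearest to the diversity and joining segments took a median of 24.9% in young, 18.5% in saline and 19.4% in MCC950 libraries, and the 34 farthest took 43.2%, 46.6% and 45.9%. These ranges overlapped between groups. Called members were found along the whole locus: 18 of 28 tested were called higher with age among the 34 nearest, 20 of 27 among the 34 in the middle and 23 of 28 among the 34 farthest.

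Other genes of the antibody and of B cells were measured in the same libraries. *Igkc*, the kappa light chain constant gene, had median levels of 129.8 CPM in young, 2767 in saline and 1160 in MCC950 libraries, with a log2 fold change with age of 4.07 (standard error 0.50, edgeR adjusted p = 1.90e-05). *Jchain*, which links IgM and IgA polymers, had medians of 23.6, 346 and 156 CPM and a log2 fold change with age of 3.64 (standard error 0.49). Of 7 tested heavy chain constant genes 5 were called higher with age, and of 5 light chain constant and J chain genes 5, while 0 of either list were called in MCC950 against saline. *Ighd*, the IgD gene of naive B cells, had a log2 fold change with age of 0.71 (edgeR adjusted p = 0.249). *Mzb1*, a chaperone of antibody-secreting cells, had medians of 1.41, 10.7 and 6.58 CPM, and its young and saline libraries did not overlap.

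The B cell markers, by contrast, overlapped. Their summed level was 44.2 to 312 CPM in young (median 100.2), 99.1 to 302 in saline (median 195) and 85.8 to 331 in MCC950 libraries (median 165), the median log2 fold change with age was 0.73, and 2 of 15 were called higher with age, 0 lower and 0 in either direction with MCC950. The highest young value was that of replicate 6, and the other young libraries were at no more than 163.4 CPM. In MCC950 replicates 6 and 7, the libraries with the highest segment levels of their group, the B cell sum was 151 and 331. *Cd79a*, a signalling chain of the B cell receptor, had medians of 14.4, 33.8 and 31.0 CPM. *Ms4a1* (CD20) had 6.72, 12.3 and 7.67, and neither gene was called. The 2 called with age, named here after their values were seen, were *Cd79b* (log2 fold change 0.99, edgeR adjusted p = 0.0222) and *Tnfrsf13c* (edgeR adjusted p = 0.00887), and both overlapped between young and saline libraries. Of 12 plasma cell genes 8 were called higher with age. Their sum was 169 to 257 CPM in young, 286 to 356 in saline and 228 to 472 in MCC950 libraries. Young and saline libraries did not overlap in this sum, and MCC950 replicates 6 and 7 were the highest of their group (353 and 472). *Sdc1* (syndecan-1) had a log2 fold change of 0.61 with age (edgeR adjusted p = 0.0175) and of -0.65 with MCC950 (edgeR adjusted p = 0.0133). *Prdm1* (BLIMP1) had 0.32 with age and -0.50 with MCC950 (edgeR adjusted p = 0.315 and 0.0971). Both genes are also transcribed outside the B lineage. With MCC950, 1 of the 12 was called lower (*Sdc1*) and 1 higher, *Creld2* (log2 fold change 0.70, edgeR adjusted p = 0.0131), an endoplasmic reticulum protein named here after its values were seen. Of 9 genes of V(D)J recombination and class switching, 5 were tested and 3 called higher with age.

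Markers of other cell types also differed between groups, some lists in the direction of the segments and others in the opposite direction. The summed level of 10 proximal tubule markers was 1843 to 4189 CPM in saline and 2485 to 7656 in MCC950 libraries, where 5 of 10 were called higher, and it was 3379 and 2485 in MCC950 replicates 6 and 7, the lowest of their group. The 10 macrophage and myeloid markers ranged from 435 to 2184 CPM in young, from 1589 to 3909 in saline and from 914 to 3877 in MCC950 libraries, with 3 called higher with age and 0 called with MCC950. The 10 podocyte markers ranged from 660 to 1511 CPM in young, from 273 to 497 in saline and from 346 to 584 in MCC950 libraries, with 9 called lower with age and 5 higher with MCC950. No marker of these 3 lists was at 0 in any library. Of 10 T cell markers 5 were called higher with age and 1 lower with MCC950, and of 8 endothelial markers 8 were lower with age and 2 lower with MCC950, while 0 of 5 red blood cell genes were called in either comparison. Of 4 heavy chain joining segments 1, *Ighj4*, was called higher with age, and the 10 diversity segments were too low to test. The part of these lists in the segment levels was not tested.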

How the data were processed

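RNA of nephrin-selected kidney fractions was sequenced from 21 libraries, grouped by their labels. The authors used Trim Galore for trimming, Bowtie2 for alignment to mm10 and featureCounts for counts per gene. The deposited tables hold raw read counts by Entrez Gene number. The strand setting and the handling of reads with several alignments are not given in the sources used here, so counts of near-identical or overlapping segments are uncertain. The authors' table of DESeq2-normalized values was not used here. RefSeq on GRCm38 gave a symbol for 25275 of the 27179 gene numbers, and sequences and exonic lengths came from GENCODE M21.

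The test was the quasi-likelihood F test of edgeR 4.0.16 (R 4.3.3) with filterByExpr by group, TMM factors and all 3 groups in 1 fit (Benjamini-Hochberg adjusted p under 0.05 over 16377 genes). Standard errors were obtained as |log2 fold change|/√F. DESeq2 1.42.0 was an alternative, among 11 settings and 21 fits that left out a library. Shares, effective numbers and sums were described without a test, in Python 3.11.15. Intervals and floors cover counting error only. p-values measure the spread between libraries, which the labels call replicates. The workflow was tested on simulated data. No 2 libraries agreed within sampling noise (lowest chi-square per degree of freedom 17.7).

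The members, gene lists and tests were chosen with earlier results of these data known. Named segments are the 6 with the highest mean level in each group, the leader of each library, in each comparison up to 8 called members with the largest rise and 8 with the largest fall, and the 3 genes on either side of the limit of 10 counts. Other genes named are the heavy chain constant genes, a few light chain, B cell and plasma cell genes and *Nphs1*. Some genes under this rule are not reported here.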

Additional observations from a re-analysis of the deposited data

Results flagged for a closer look

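In groups of 6 to 8 libraries, a highest or lowest library that stood apart from the others by Dixon's criterion was found for 39 of 102 segments in young, 26 in saline and 39 in MCC950 libraries. Chance gives about 1 in 20 groups for normally distributed values, which these skewed and often very low levels are not, so no excess is read from the numbers: in 11 of the young cases and 1 saline case the library was the only one of its group with any count. MCC950 replicate 6 was that library for 22 segments, young replicate 4 for 14 and saline replicate 7 for 6. The share of the leading segment stood apart in MCC950 replicate 7, at 64.8%. The values below are levels in TMM-scaled CPM of the named segments. They were not tested for a cause.

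In MCC950 replicate 7, *Ighv1-53* was at 598, *Ighv1-39* at 25.96, *Ighv1-43* at 1.46 and *Ighv1-79* at 0.0809. In MCC950 replicate 6, *Ighv1-26* was at 97.9, *Ighv1-72* at 66.6, *Ighv1-55* at 38.7, *Ighv8-8* at 16.3 and *Ighv8-11* at 0.0732. Elsewhere in that group, *Ighv1-50* was at 27.9 in replicate 8, *Ighv5-9-1* at 18.6 and *Ighv8-6* at 0.0848 in replicate 3, and *Ighv1-75* at 5.87 in replicate 5.

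In saline replicate 4, *Ighv3-6* was at 163, *Ighv1-82* at 73.8, *Ighv1-54* at 66.1 and *Ighv1-79* at 0.0774. *Ighv1-18* was at 164 in saline replicate 3, and *Ighv1-39* was at 104 and *Ighv1-43* at 1.70 in saline replicate 5. *Ighv1-64* was at 36.0 and *Ighv1-84* at 4.68 in saline replicate 2, *Ighv11-2* at 23.3 in saline replicate 1 and *Ighv1-58* at 6.89 in saline replicate 7.

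In young replicate 4, *Ighv1-80* was at 10.3, *Ighv1-64* at 9.29, *Ighv3-6* at 5.39, *Ighv1-72* at 5.03, *Ighv1-18* at 4.48 and *Ighv1-50* at 1.42. In young replicate 6, *Ighv5-4* was at 4.68, *Ighv5-12* at 0.543, *Ighv1-31* at 0.0836 and *Ighv1-58* and *Ighv1-79* at 0.0418 each, the last a single count. In young replicate 2, *Ighv8-8* was at 6.40 and *Ighv1-84* at 0.232, and in young replicate 1, *Ighv3-4* was at 0.597 and *Ighv8-11* at 0.0498.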

How the results depend on the processing

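Over 11 other settings and 21 fits without 1 library, the number of segments called higher with age lay between 56 and 71 and the number called higher in MCC950 than in young libraries between 36 and 62, with 0 called lower in either. Between MCC950 and saline libraries, 0 to 1 were called higher and 5 to 19 lower in the fits without 1 library, and 8 to 14 were called lower in the other settings. Some named segments had no adjusted p in some alternatives, such as *Ighv11-2*, with a value in 8 of the 11 settings for saline against young. Alternatives without a value were left out of the following counts. Of the named segments called, 22 of 25 kept the call in all remaining alternatives for saline against young. For MCC950 against young it was 16 of 19 and for MCC950 against saline 1 of 10. With means over libraries in place of medians, the MCC950 to saline ratio of summed levels was 0.587. Whether the same replicate numbers in 2 groups mark paired samples is not given. Differently numbered pairs were not compared, so the correlations below cannot decide it. Of same-numbered pairs, 2 of 6, 3 of 7 and 3 of 6 deviated together by a correlation over 0.1 (highest 0.347, 0.335 and 0.401). These values are for saline against young, MCC950 against saline and MCC950 against young, in that order. With the replicate block, 57, 8 and 36 segments were called higher, lower and higher in these comparisons, and 3 of the 11 called lower with MCC950 were still called, *Ighv1-12*, *Ighv1-80* and *Ighv6-6*, while *Ighv3-6*, *Ighv11-2* and *Ighv14-4* were not (adjusted p = 0.0873, 0.182 and 0.0881).

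Log2 fold changes that changed sign were all of segments not called with all libraries. For MCC950 against saline, the replicate block gave -1.31 for *Ighv1-50*, -0.054 for *Ighv1-84* and -0.87 for *Ighv5-9-1*, and for *Ighv1-53* RLE normalization gave 0.0023 and DESeq2 0.0018. Without 1 library, the range was -2.39 to 0.039 for *Ighv1-39*, -1.16 to 0.42 for *Ighv1-50*, -1.40 to 0.21 for *Ighv1-53*, -1.13 to 0.40 for *Ighv1-82*, -0.087 to 0.87 for *Ighv1-84* and -2.03 to 0.41 for *Ighv5-9-1*. For MCC950 against young it was -0.58 to 5.40 for *Ighv3-4* and -0.0059 to 2.06 for *Ighv5-4*. The causes were not tested. Low counts in young libraries limit the precision of the fold changes with age.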
